A study of Mus musculus with 2 samples.

Results

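The Gata3 locus of mouse Th2 cells carried a block of histone H3 acetylation in the 5′ part of the gene. Smaller peaks lay in the 12 kb upstream, where the background was raised too, and levels were lower elsewhere in the window. Gata3 encodes a zinc-finger transcription factor of the GATA family. The locus was taken as the 200 bins of 1 kb between positions 9700001 and 9900000 of mouse chromosome 2 (mm9), a window around the gene set by its coordinates, out of 2246042 bins of the genome covered by at least 1 read. Within it, the gene was taken as the 22 kb from 9778001 to 9800000, on the minus strand, so that transcription runs towards lower coordinates and the 5′ end lies near 9800000. These gene ends are approximate, given to 1 kb, and were not checked against an annotation of mm9.

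GATA3 is the transcription factor that directs CD4+ T cells to the Th2 fate. In these cells interleukin 4 acts through STAT6 to raise Gata3 transcription, and GATA3 in turn opens and activates the locus of the Th2 cytokines interleukin 4, 5 and 13 and holds back the interferon gamma programme of Th1 cells. It is also needed earlier, for T cells to form in the thymus. Acetylation of histone H3 lysines is laid down by acetyltransferases that transcription factors recruit, and it marks promoters and enhancers in active use.

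Sequenced chromatin immunoprecipitates (ChIP-seq) were available as 1 H3KAc library, for which the antibody was directed at histone H3 with acetylated lysines, and 1 IgG library, for which polyclonal rabbit IgG was used to measure the non-specific background. Both came from Th2 cells of C57BL/6 mice, grown from CD4+CD62L+ cells of the spleen by 5 days of activation through CD3 and CD28 with 10 ng/ml IL-4 and 2 µg/ml of an antibody against interferon gamma, and 3 days of rest. No other T cell type entered the series, so the values describe Th2 cells alone, and the cell type label was not checked against marker genes, whose mm9 positions were not used here. The H3KAc library held 19711169 distinct read positions and the IgG library 1897666. Levels are given in RPM, reads per 1000000 distinct positions of the library, and each IgG read is worth 0.527 RPM against 0.0507 RPM for an H3KAc read. With 1 library per group there is no replicate check and no p-value. Intervals are exact 95% intervals for counting error only, and they compare these libraries rather than the conditions.

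The promoter sequence is shown because the acetylation described below lay near the 5′ end of the gene, mostly inside it. These are the 250 bases before the Gata3 start in RefSeq (chr2:9878601-9878850 of GRCm38.p6, minus strand, a build other than that of the reads, so the sequence was not placed among the bins). Capitals mark GGGCGG, the core of the GC box that SP-family factors bind.
Gata3 promoter: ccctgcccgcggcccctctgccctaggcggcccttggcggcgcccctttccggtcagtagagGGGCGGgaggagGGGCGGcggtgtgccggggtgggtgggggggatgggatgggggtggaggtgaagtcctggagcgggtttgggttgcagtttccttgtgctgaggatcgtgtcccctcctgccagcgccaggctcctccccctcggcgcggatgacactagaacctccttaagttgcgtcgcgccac

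The sequence held 70.0% G and C and 19 CpG dinucleotides, against medians of 52.4% and 6 over the same 250 bases of 32851 RefSeq promoters, of which 80.3% had fewer CpGs. It held 2 copies of GGGCGG, searched on both strands (GGGCGG and CCGCCC), which do not overlap. At least 1 copy stood in 32.7% of all promoters and at least 2 in 16.7%. TATAAA, the core of the TATA box, was not among these letters on either strand, and 12.4% of promoters held it. GATA, the core of the site that GATA factors bind, was not found either (TATC on the other strand), and 53.6% of promoters held it.

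Over the whole 200 kb, H3KAc amounted to 169 RPM from 3340 reads, against 112 RPM from 213 IgG reads. The ratio was 1.51 (1.31 to 1.74), where a ratio of 1 is the average of the genome because RPM divide by the library total. Every one of the 200 bins had an H3KAc read, from 1 to 177 with a median of 11, and 100 bins had no IgG read. The median of 11 compares with 6 H3KAc reads in covered bins of the whole genome, and the highest bins lay far above it.

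**Figure D1:**
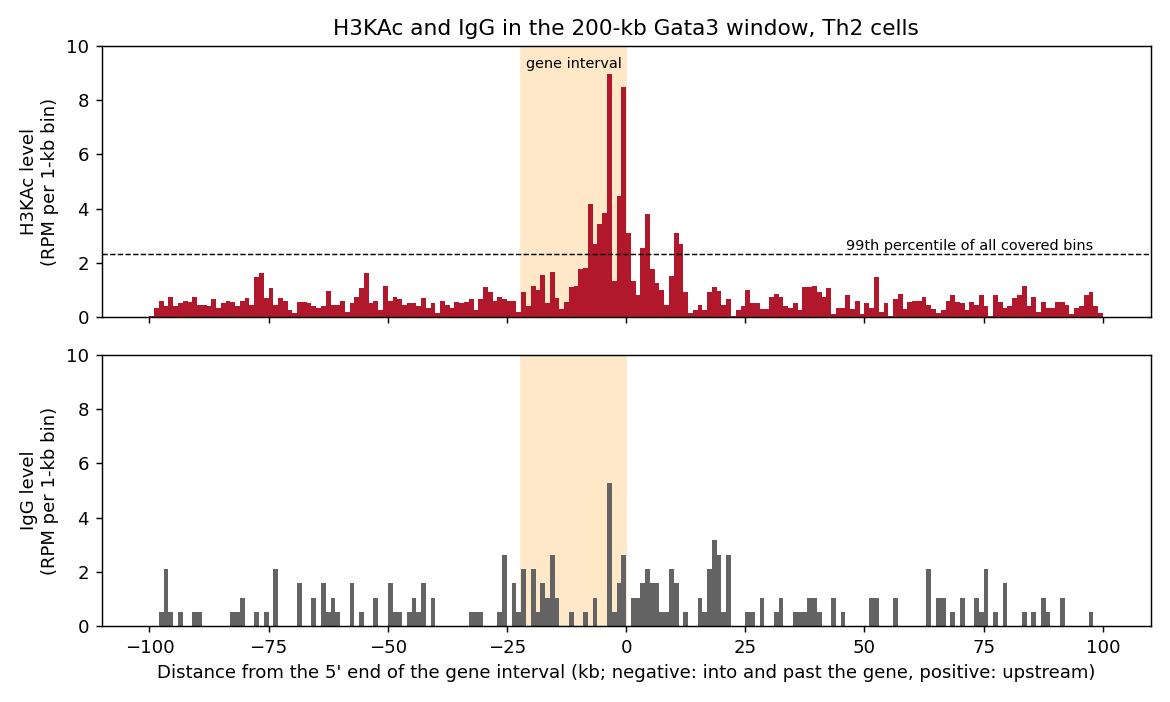
Levels in RPM per 1-kb bin (bars) of the H3KAc library (top) and the IgG library (bottom) across the 200-kb Gata3 window, by distance in kb from the 5′ end of the gene interval (shaded), with the 99th percentile of H3KAc over all covered bins as a dashed line. H3KAc reaches 8.98 and 8.47 RPM in 2 bins of the gene interval near its 5′ end. The highest IgG bin, at 5.27 RPM, is the same bin as the highest of H3KAc.

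The acetylation lay in the 5′ part of the gene. The 11 kb at the 5′ end (9789001 to 9800000, the 5′ segment) had 42.2 RPM in H3KAc from 831 reads and 11.6 RPM in IgG from 22 reads, a ratio of 3.64 (2.39 to 5.83). The 11 kb at the 3′ end (9778001 to 9789000, the 3′ segment) had 9.94 RPM in H3KAc from 196 reads and 11.6 RPM in IgG, also from 22 reads, a ratio of 0.858 (0.551 to 1.40). The segments therefore differed in H3KAc by 4.24-fold (3.62 to 4.98) and in IgG by 1.0-fold (0.528 to 1.89). The H3KAc over IgG ratio of the 5′ segment was 4.23 times that of the 3′ segment (2.19 to 8.19), an interval that lies above 1.

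Over the whole gene interval, H3KAc stood at 2.37 RPM per kb, IgG at 1.05 RPM per kb and their ratio at 2.25 (1.66 to 3.11). The gene took up 11% of the window and held 30.7% of its H3KAc reads and 20.7% of its IgG reads. The 100 kb upstream of the gene averaged 0.714 RPM per kb in H3KAc, against 0.553 RPM per kb in IgG, with a ratio of 1.29 (1.06 to 1.59). The 78 kb downstream averaged 0.589 RPM per kb in H3KAc and 0.432 RPM per kb in IgG, a ratio of 1.36 (1.06 to 1.79). The gene interval's ratio was 1.74 times that of the upstream flank (1.20 to 2.56) and 1.65 times that of the downstream flank (1.09 to 2.50). Relative to IgG, the flanks did not differ from each other beyond counting error, with a ratio of ratios of 0.947 (0.675 to 1.32). Per kb, the upstream flank held 1.21-fold the H3KAc level of the downstream flank (1.11 to 1.32). In IgG it held 1.28-fold (0.929 to 1.77). When IgG was scaled by low-signal bins of the genome in place of its total, the flanks stood at 0.983 upstream and 1.04 downstream, so H3KAc above IgG in the flanks depended on the scaling, while the 5′ segment kept a ratio of 2.77 (lower bound 1.82).

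**Figure D2:**
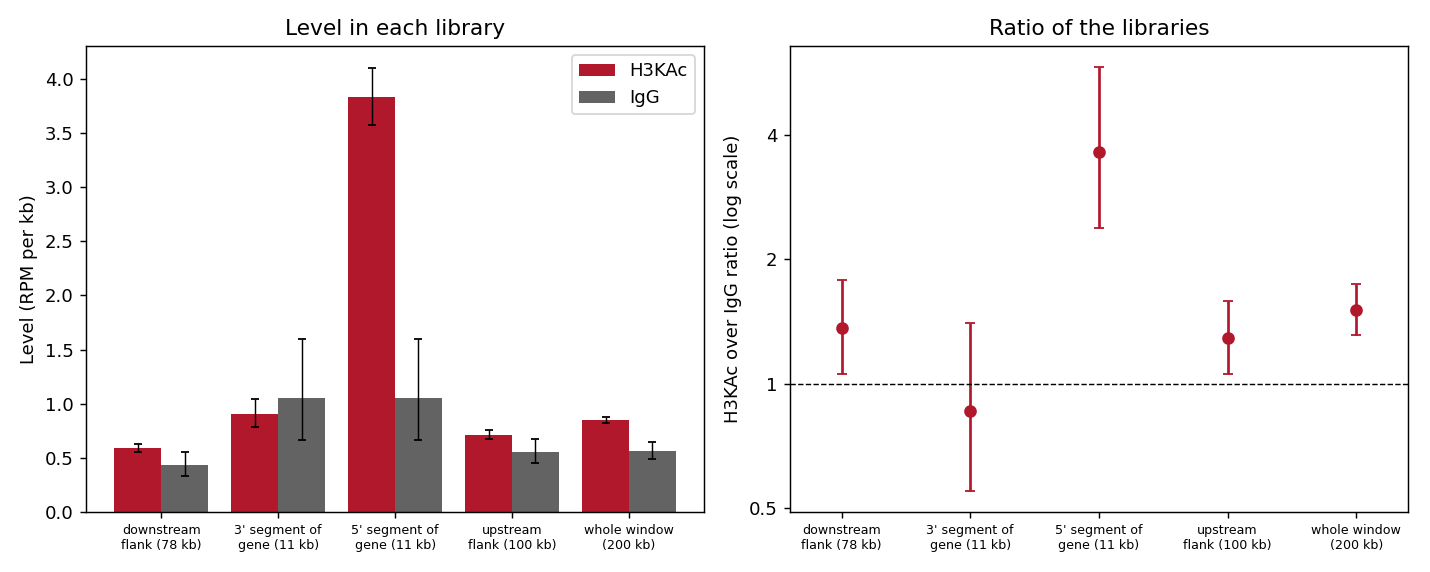
Left, levels in RPM per kb of H3KAc (red) and IgG (grey) in the downstream flank, the 3′ and 5′ segments of the gene interval, the upstream flank and the whole window, with exact Poisson 95% intervals. Right, the H3KAc over IgG ratio on a log scale with its exact 95% interval: the 5′ segment stands at 3.64 and the 3′ segment at 0.858, with equal IgG.

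At the scale of single bins, 12 of the 200 reached the 99th percentile of H3KAc over all covered bins, which is 46 reads or 2.33 RPM, against 1.02% of bins in the genome. All 12 lay between 9792001 and 9812000, and 7 of them in the gene interval. Joined with at most 1 bin between them, they made 3 stretches. The first covered 9 kb, from 9792001 to 9801000: the 8 kb of the 5′ segment nearest the 5′ end and the first kb upstream. It had 40.5 RPM in H3KAc from 798 reads and 11.1 RPM in IgG from 21 reads, a ratio of 3.66 (2.38 to 5.94). It took up 4.50% of the window and held 23.9% of its H3KAc reads and 9.86% of its IgG reads. The other 2 stretches were 2 kb each and lay upstream, from 9803001 to 9805000 and from 9810001 to 9812000.

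The first stretch had 2 summits with a dip between them. The bin from 9796001 had the most H3KAc reads of the window, with 177 reads or 8.98 RPM (7.71 to 10.4), against 10 IgG reads or 5.27 RPM (2.53 to 9.69). The bin from 9799001, at the 5′ end of the gene interval, had 167 reads or 8.47 RPM in H3KAc (7.24 to 9.86). It held 5 IgG reads or 2.63 RPM. More than 99.9% of covered bins of the genome held less H3KAc than either. Between them, the bin from 9797001 held 26 reads or 1.32 RPM in H3KAc, against 1 IgG read, and the bin from 9798001 stood at 88 reads or 4.46 RPM, against 3 IgG reads. At 100 bp, the summit nearest the 5′ end lay from 9799101 to 9799300, where the 2 pieces held 38 and 41 H3KAc reads and 1 IgG read each. Positions here had been moved 100 bp along their strand, plus-strand reads to the right and minus-strand reads to the left. After this move, plus-strand reads prevailed in the right-hand piece of the summit, with 36 plus and 5 minus H3KAc reads from 9799201 to 9799300. Minus-strand reads prevailed just left of the summit, with 2 plus and 23 minus from 9798901 to 9799000.

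**Figure D3:**
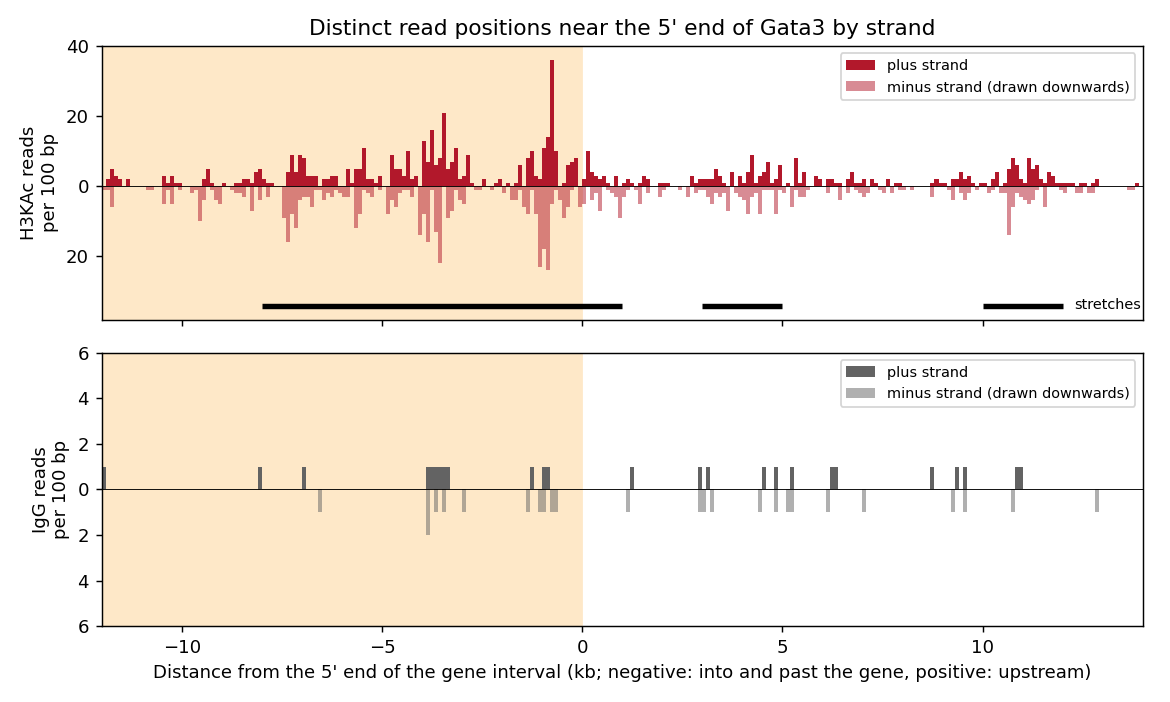
Distinct H3KAc (top) and IgG (bottom) read positions per 100 bp, moved 100 bp along their strand, with plus-strand reads upwards and minus-strand reads downwards, from 12 kb inside the gene interval (shaded) to 14 kb upstream. Black bars are the 3 stretches, and the 2 summits of the first lie about 1 kb and about 4 kb inside the 5′ end. The vertical scales of the libraries differ.

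The ratio of a single bin rested on few IgG reads. The bin from 9792001 was the only one called enriched, which needed at least 5 reads in both libraries together and a lower bound of the ratio above 2. It was 1 of 186 bins of the window that could be tested, against 0.0836% of 1409765 in the genome; the other 14 bins had fewer than 5 reads. It held 82 H3KAc reads or 4.16 RPM and no IgG read, so H3KAc was at least 2.09-fold higher by the lower bound of the interval. For its IgG level, the upper bound of the exact interval was 1.94 RPM, and a limit of 3 reads for a count of 0 corresponds to 1.58 RPM. The summit bin from 9796001, with more than 2 times the H3KAc reads, had a ratio of 1.70 (0.905 to 3.62) with its 10 IgG reads, the most of any bin in the window. The summit bin from 9799001 had a ratio of 3.22 (1.35 to 10.0). In the bins from 9794001, 9795001 and 9800001, with 68, 76 and 61 H3KAc reads and no IgG read, the lower bounds were 1.73, 1.94 and 1.54.

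At a lower bound above 1, 6 bins of the window passed, against 0.651% of tested bins in the genome, and 4 of them lay in the gene interval. Of all 22-kb windows on the autosomes, 0.170% held at least 4 such bins, and 1.02% held at least 1 bin called enriched. The enriched call of the bin from 9792001 was lost when reads were not moved along their strand, when either strand was counted alone, when IgG was scaled by low-signal bins and with 500-bp bins. With IgG averaged over the 11 bins centred on each bin, 9 bins of the window were called, against 2.15% in the genome, and 6 of these lay in the gene interval. They formed a domain of 5 kb from 9795001 to 9800000, with 27.1 RPM in H3KAc, 10.0 RPM in IgG and thus a ratio of 2.71 (1.72 to 4.53). Of 22829 such domains in the genome, 256 were as wide or wider. A second domain of 3 kb, from 9790001 to 9793000, had 153 H3KAc reads and 1 IgG read. The other 3 calls, from 9810001, 9852001 and 9897001, were single bins.

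Upstream of the gene, H3KAc formed separate peaks with troughs between them over the first 12 kb. This 12 kb had 1.95 RPM per kb in H3KAc from 461 reads, against 1.14 RPM per kb in IgG from 26 reads, with a ratio of 1.71 (1.15 to 2.64). The bin from 9800001 had 61 H3KAc reads, and the bin from 9802001 had 16 H3KAc reads and 2 IgG reads. The stretch from 9803001 to 9805000 had 6.34 RPM in H3KAc from 125 reads and 3.69 RPM in IgG from 7 reads, a ratio of 1.72 (0.810 to 4.36), so it was not above IgG beyond counting error. The stretch from 9810001 to 9812000 had 5.78 RPM in H3KAc from 114 reads and 1.58 RPM in IgG from 3 reads, a ratio of 3.66 (1.22 to 18.0). Between these stretches, the bin from 9808001 held 9 H3KAc reads and 1 IgG read. Beyond 12 kb upstream, H3KAc averaged 0.545 RPM per kb, IgG averaged 0.473 RPM per kb and their ratio was 1.15 (0.916 to 1.47), and no bin held more than 29 H3KAc reads. Per kb, the first 12 kb held 3.57-fold the H3KAc level of the flank beyond it (lower bound 3.19). In IgG it held 2.41-fold (1.49 to 3.80). The H3KAc over IgG ratio of the first 12 kb was 1.48 times that beyond it (0.925 to 2.44). That interval includes 1, so the first 12 kb did not exceed the rest of the flank relative to IgG beyond counting error. Scaling IgG by low-signal bins multiplies every ratio and its bounds by 0.762. The lower bounds of the first 12 kb and of the stretch from 9810001 to 9812000 would then lie below 1. With that scaling, neither would be above IgG beyond counting error. The limit of 12 kb was set after the values were seen.

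Gata3 has annotated neighbours on both sides. In RefSeq on GRCm38, used for names and order only, the long noncoding RNA genes 4930412O13Rik and 9230102O04Rik come next upstream and overlap the longest Gata3 model but not the part downstream of the promoter start shown above. That longest model is 30876 bases long, counts predicted transcripts and begins 9353 bases before this start, and the part from the start to the gene's 3′ end is 21523 bases. The next genes upstream are the long noncoding RNA gene Gm13262 and then Taf3, which encodes a subunit of the general transcription factor TFIID. Downstream of Gata3 come the long noncoding RNA genes Gm13218 and then Gm13219. None of these was placed on mm9, so the upstream stretches were not assigned to Gata3 or to a neighbour.

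Blocks of 10 kb show how the levels run across the window. From 9790001 to 9800000, H3KAc stood at 4.10 RPM per kb, against 1.16 RPM per kb in IgG, with a ratio of 3.54 (2.32 to 5.67). In the next block upstream, to 9810000, H3KAc stood at 1.76 RPM per kb, against 1.21 RPM per kb in IgG, with a ratio of 1.45 (0.952 to 2.32). The block after it, to 9820000, had 1.08 RPM per kb in H3KAc and 1.16 RPM per kb in IgG, a ratio of 0.932 (0.600 to 1.52). On the other side, the block from 9780001 to 9790000 had 0.979 RPM per kb in H3KAc and 0.949 RPM per kb in IgG, a ratio of 1.03 (0.636 to 1.78). H3KAc in the other 16 blocks lay between 0.446 and 0.807 RPM per kb, against a genome average of 0.445 RPM per covered kb in both libraries. IgG lay between 0.949 and 1.21 RPM per kb in the 4 blocks from 9780001 to 9820000 and between 0.158 and 0.738 RPM per kb in the other 16, so both libraries had their highest blocks here. Among these 4, the interval of the ratio lay above 1 only in the block at the 5′ end. It also lay above 1 in 3 blocks downstream of the gene with few IgG reads. The block from 9720001 had a ratio of 2.55 (1.15 to 7.06) from 159 H3KAc and 6 IgG reads. The block from 9740001 had a ratio of 2.31 (1.04 to 6.40) from 144 H3KAc and 6 IgG reads, and that from 9760001 one of 3.02 (1.001 to 14.9) from 94 H3KAc and 3 IgG reads. H3KAc in these 3 was 0.807, 0.731 and 0.477 RPM per kb. Scaling IgG by low-signal bins, which multiplies ratios and bounds by 0.762, would put the lower bounds of these 3 blocks below 1. The lower bound of the block at the 5′ end would stay above 1.

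Outside the 5′ region, a few bins reached the 95th percentile of H3KAc, which is 24 reads. Of the 200 bins, 25 reached it, against 5.57% in the genome, and 12 of these were among the 22 bins of the gene interval. In the 3′ segment of the gene, the bins from 9782001 and 9784001 held 31 and 33 H3KAc reads, against 3 and 5 IgG reads, with ratios of 0.995 (0.310 to 5.09) and 0.635 (0.247 to 2.08). Downstream of the gene, the neighbouring bins from 9722001 and 9723001 held 29 and 32 H3KAc reads, against 1 and 0 IgG reads. The bin from 9745001 held 32 H3KAc reads and no IgG read, and upstream the bin from 9852001 held 29 H3KAc reads and 2 IgG reads. With IgG of the same bin, none of these had a lower bound above 1. With IgG over 11 bins, the lower bounds were 1.45, 1.76, 1.76, 1.06 and 2.09 for the bins from 9722001, 9723001, 9745001, 9784001 and 9852001, and 0.837 for that from 9782001.

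IgG itself was uneven in the window. After the bin from 9796001 with 10 reads, the most IgG reads lay in the bin from 9818001 with 22 H3KAc reads and 6 IgG reads, and 5 further bins held 5 IgG reads each. One of those was the summit bin from 9799001, and the others, from 9774001, 9784001, 9819001 and 9821001, held 13, 33, 19 and 13 H3KAc reads. The longest run without an IgG read was 7 kb, from 9760001 to 9767000, with 63 H3KAc reads, where 7.46 IgG reads would stand at the window's average. Over the 200 bins, H3KAc and IgG reads had a Pearson correlation of 0.451 and a Spearman correlation of 0.299, against 0.502 and 0.462 over all covered bins. Bins share the library, its fragmentation and the mappability of the sequence, and the part of these in the common summit was not tested.

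Compared with the rest of the genome, the gene interval was far up the H3KAc range and less far up the IgG range. With 52.1 RPM in H3KAc it exceeded 99.9% of the 2350961 windows of 22 kb on the autosomes, at 7.55 times their median of 6.90 RPM. With 23.2 RPM in IgG it exceeded 92.1% of them, at 3.67 times their median of 6.32 RPM. The 5′ segment alone, with 42.2 RPM in H3KAc, was 12.2 times the median of 11-kb windows, and 3.67 times in IgG. The whole 200 kb exceeded 90.8% of windows of its width in H3KAc and about 75% in IgG. These windows overlap at steps of 1 kb and are a description, not replicates.

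**Figure D4:**
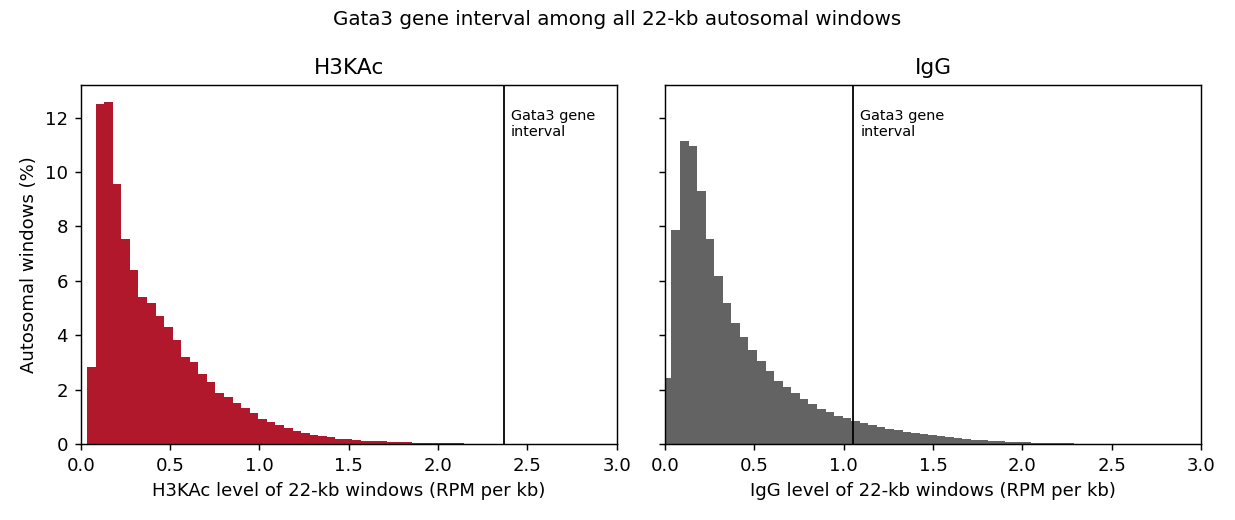
Share in percent of all 22-kb autosomal windows (bars) by their level in RPM per kb, for H3KAc (left) and IgG (right), with the Gata3 gene interval as a vertical line. The gene interval, at 2.37 RPM per kb in H3KAc and 1.05 RPM per kb in IgG, exceeds 99.9% and 92.1% of windows. The axis ends near 3 RPM per kb, above which lie fewer than 0.1% of windows.

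The 9-kb stretch was also wide for this library. Of 14336 stretches in the genome made by the same rule, 85 (0.593%) were 9 kb or wider, and the median was 1 kb. Set beside the other 84, Gata3's ratio of 3.66 was higher than that of 74. The 84 had a median ratio of 1.97 (quartiles 1.13 and 2.53), and 20 of them had a ratio below 1. Its H3KAc level of 4.50 RPM per kb was above that of 57 of them, against a median of 3.91 RPM per kb, and its IgG level of 1.23 RPM per kb was above that of 12, against a median of 1.87 RPM per kb. The stretches were chosen by their H3KAc reads, so these ranks are a description with no test.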

How the data were processed

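The deposited files list 1 aligned read per row (chromosome, start, end, strand), all 35 bases long, with no normalization by the authors. Alignment was to mm9 with Bowtie, per the submitters' processing notes. Not given in the sources used here are its version, multi-mapping settings and filters. Per the labels' protocols, chromatin was crosslinked in 0.4% formaldehyde and precipitated with 7 µg of antibody, and DNA of about 200 bp was taken from a gel after the PCR.

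Reads that shared chromosome, strand and 5′ end counted as 1 distinct position, since copies carry no molecular identifier. The H3KAc library held 21845451 reads (1.11 per distinct position) and the IgG library 7626703 (4.02 per position), so IgG depth limited every ratio: covered bins averaged 8.78 H3KAc and 0.845 IgG reads. Reads were moved 100 bp along their strand. Ratios of RPM have exact conditional binomial (Clopper-Pearson) 95% intervals, levels exact Poisson ones. Windows covered in fewer than 50% of bins were left out of the ranks. The calling was tested on simulated counts, scored only in bins with far more reads than most bins of this window. That test therefore does not cover most bins here. The locus, bins named (those with most H3KAc or IgG reads, enriched bins, stretches, blocks and gene ends) and settings were chosen with earlier results of these data known. The tools were scipy 1.17.1 for intervals, numpy 2.4.6 and pandas 2.3.3 for counting and matplotlib 3.10.9 for plots, run in Python 3.11.15. Promoter sequence, gene names and gene order came from RefSeq on GRCm38.p6.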

Additional observations from a re-analysis of the deposited data

Results flagged for a closer look

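Repeat reads, left out of the main counts because another read had the same position, were looked at per 1000000 such reads of each library. In the 200-kb window they numbered 402 in H3KAc and 710 in IgG, a ratio of 1.52 (1.34 to 1.72). In the gene interval they numbered 185 in H3KAc and 137 in IgG, a ratio of 3.62 (2.89 to 4.55). In the 5′ segment of the gene they numbered 163 in H3KAc and 44 in IgG, a ratio of 9.94 (7.09 to 14.2), against 22 and 93 in the 3′ segment, a ratio of 0.635 (0.380 to 1.02). These intervals treat every copy as an independent read, so they are likely too narrow. The copies lie at positions already in the main counts, so their ratios are not separate support for the main ratios.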

How the results depend on the processing

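The count of 1 enriched bin in the window became 17 when all deposited reads were counted, 9 with IgG over 11 bins and 6 at a lower bound above 1. For the count of 17, the share of genome bins called in the same way was not computed, so it is not shown to concern this locus. That setting also treats copies as independent reads, at 4.02 IgG reads per position, so its intervals are likely too narrow. It became 0 with reads not moved, plus-strand reads, minus-strand reads, IgG scaled by background bins, a lower bound above 4 and 500-bp bins. The 9-kb stretch became 17 kb at the 95th percentile and 5 kb with no bin between joined bins. With IgG scaled by background bins, the ratio was 1.15 for the window, 0.983 for the upstream flank (below 1) and 1.04 for the downstream flank. The cause of these moves was not tested, apart from the rules that change the threshold or the reads counted. The other 47 values stayed within the interval of the main value, or within 1.5 times of it for the width. Among them, the ratio of the 5′ over the 3′ segment could not move with IgG scaled by background bins, because the scaling cancels. The settings with a single strand use part of the same reads. The 5′ segment had ratios from 2.77 to 5.26 and the 3′ segment from 0.654 to 1.10. The ratio of the 5′ over the 3′ segment lay between 3.12 and 7.93, with a lowest bound of 1.11 for plus-strand reads; its alternatives, and those of the ranks, were added after seeing the data. No paired analysis was possible because each group had 1 library.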
